A study of Mus musculus with 12 samples.

Results

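Pkm, the genes of the steps around it in lower glycolysis, and a transporter that carries lactate out of the cell were followed in cultured mouse natural killer (NK) cells. The 9 genes were picked by symbol from an expression table of 11706 genes. They are Aldoa, Tpi1, Gapdh, Pgk1, Pgam1, Eno1, Pkm, Ldha and Slc16a1. All 9 were found, and all 9 passed the filter that left 11142 genes for testing (mean RPKM of 1 or more). RPKM is the number of reads of a gene scaled by its length and by the mapped reads of the library, so levels can be set beside each other between genes.

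NK cells are lymphocytes that kill infected and malignant cells. Splenocytes of C57BL6 mice were expanded in IL-15 (10 ng per mL) for 6 days and purified with magnetic beads. The labels state that every group then received IL-2 (330 U per mL) with IL-12 (10 ng per mL) over 18 hours. PKM2 KO cells (3 samples in the labels, 2 libraries used) carried 1 copy of NCR1Cre and PKM2fl/fl alleles, and PKM2 WT cells (3 libraries) carried NCR1Cre alone. NCR1Cre expresses the recombinase Cre from Ncr1, a gene of NK cells and a few related lymphocytes, so a cell that never expressed Ncr1 keeps an intact PKM2. The second experiment used cells of genotype WT given TEPP-46, a small molecule that activates the PKM2 enzyme (3 libraries), or vehicle (3 libraries). Its dose is 50 µM in one source and 50 mM in another, and the vehicle is 0.1% DMSO in one and PBS in another. Sample titles number the samples of a group as biological replicates. Neither the age of the mice nor the number of animals behind a library is given. The p-values below set a difference between groups against how far libraries of a group vary, and some of that variation may be technical.

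Glycolysis splits glucose into trioses and oxidises them to pyruvate. Aldolase (Aldoa) makes the trioses, triosephosphate isomerase (Tpi1) interconverts them, and Gapdh, Pgk1, Pgam1, Eno1 and pyruvate kinase (Pkm) carry them on to pyruvate. Lactate dehydrogenase (Ldha) turns pyruvate into lactate while restoring the NAD+ that Gapdh needs, and the monocarboxylate transporter MCT1 (Slc16a1) moves lactate across the plasma membrane. Activated lymphocytes are known for raising this route.

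Pkm yields the M1 or the M2 isoform through a choice between a pair of neighbouring coding exons, which are printed because the deletion and the drug are both aimed at the M2 form while the table counts the whole gene. Both exons are 167 bases long and lie on the plus strand of chromosome 9 (GRCm38, the assembly of the mm10 build; GENCODE M21 transcripts). The M1 exon, exon 9 of the gene, is chr9:59675029-59675195, and the M2 exon, exon 10, is chr9:59675568-59675734. Bases in capitals differ between the exons.
M1 exon: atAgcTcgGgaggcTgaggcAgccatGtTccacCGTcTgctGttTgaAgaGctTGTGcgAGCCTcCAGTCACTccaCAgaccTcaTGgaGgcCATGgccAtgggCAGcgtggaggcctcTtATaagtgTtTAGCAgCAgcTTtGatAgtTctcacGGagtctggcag
M2 exon: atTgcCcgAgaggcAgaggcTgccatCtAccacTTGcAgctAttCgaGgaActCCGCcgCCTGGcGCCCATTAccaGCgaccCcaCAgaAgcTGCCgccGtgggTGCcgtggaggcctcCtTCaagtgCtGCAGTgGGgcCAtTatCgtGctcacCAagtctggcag
Compared base by base without gaps, the exons share 103 positions (61.7%) and differ at 64. The GENCODE transcripts that hold them both have 1593 coding bases. A gene-level RPKM sums over both isoforms, so the level of either isoform alone was not measured here.

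The small RNAs Rn7s1, Rn7s2 and Rn7sk made up 54.6% to 56.2% of the summed RPKM in PKM2 KO, 48.3% to 53.5% in PKM2 WT, 34.2% to 41.0% in TEPP-46 and 32.4% to 42.0% in vehicle. Median RPKM over the tested genes was 13.2 to 14.4 in every library. Read depth is unknown. All 12 NK cell markers listed were in the table, with a summed RPKM of 9968 to 11001 in PKM2 KO, 11036 to 12824 in PKM2 WT, 24995 to 26917 in TEPP-46 and 22359 to 23345 in vehicle. The drug libraries owe much of their sum to Gzmb, the granzyme B gene, which averaged 14777 RPKM in vehicle and 2753 RPKM in PKM2 WT. In vehicle against PKM2 WT, limma called 4 of the 12 NK cell markers higher and 6 lower. Over all genes tested it called 38.6% higher and 36.7% lower. The median log2 fold change of the 12 markers was -0.30, beside 0.00 over all genes tested. Klrb1c averaged 42.5 RPKM in vehicle and 386 RPKM in PKM2 WT, and Ncr1 97.8 RPKM in vehicle and 238 RPKM in PKM2 WT. Of the markers of other cells, 0 of 8 for B cells, 5 of 10 for T cells, 2 of 12 for macrophages and dendritic cells, 1 of 10 for red cells and platelets and 7 of 11 for granulocytes, basophils and mast cells were in the table. The granulocyte, basophil and mast cell markers summed to 69.8 to 116 RPKM in PKM2 KO, 124 to 311 in PKM2 WT, 8.75 to 33.0 in TEPP-46 and 7.51 to 26.8 in vehicle. Summed RPKM of the T cell markers was 764 to 779 in PKM2 KO, 780 to 851 in PKM2 WT, 646 to 795 in TEPP-46 and 600.1 to 677 in vehicle. Most of it was Trbc1 and Trbc2, which averaged 522 and 222 RPKM in PKM2 KO and 505 and 205 RPKM in PKM2 WT. In TEPP-46 they averaged 515 and 175 RPKM, and in vehicle 460 and 158 RPKM. Cd3d averaged only 4.8 RPKM in PKM2 KO and 8.35 RPKM in PKM2 WT, and Trac 11.75 and 14.6 RPKM. Another T cell marker, the T cell receptor complex gene Cd3g, was at 14.6 and 6.43 RPKM in PKM2 KO, against 84.8, 69.9 and 100.2 RPKM in PKM2 WT, without overlap. Its log2 fold change was -2.98 (limma adjusted p = 0.228). It passed among protein-coding genes only (limma adjusted p = 0.0261) and with the spread from all libraries (limma adjusted p = 0.00229). Cd3g averaged 8.25 RPKM in TEPP-46 and 7.90 RPKM in vehicle. The part of these markers in the results was not tested.

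The genotype libraries looked unlike the drug libraries in a way that the labels do not give. Ifng, the cytokine gene that IL-12 induces in NK cells, stood at 18.8 to 24.3 RPKM in PKM2 KO and 22.7 to 24.2 RPKM in PKM2 WT, but at 797 to 908 RPKM in TEPP-46 and 1014 to 1083 RPKM in vehicle. The Y-linked gene Ddx3y was expressed in PKM2 KO replicate 2, PKM2 WT replicate 3 and all 6 drug libraries, and was listed at 0 in the other 3. Whether the genotype libraries received the cytokines was not tested, and they are named by those labels throughout.

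Among the 9 genes, Pkm was lower in PKM2 KO and no other gene passed the test. Pkm stood at 76.7 and 78.4 RPKM in PKM2 KO, against 221, 198 and 199 RPKM in PKM2 WT. The groups lay far apart, with little spread inside either. The PKM2 KO mean was 0.377 times that of PKM2 WT, a log2 fold change of -1.40 (SE 0.07, 95% interval -1.56 to -1.23) with an adjusted p of 0.00847 from limma over 11142 genes. The exact two-sided permutation test over libraries gave p = 0.1, the smallest that 2 against 3 libraries allow. Fewer cells with an intact gene and less Pkm RNA per cell cannot be told apart in bulk RNA. Within the libraries that expressed Ddx3y, Pkm was at 78.4 RPKM in PKM2 KO and 199 RPKM in PKM2 WT; within those listed at 0 it was at 76.7 RPKM in PKM2 KO and at 221 and 198 RPKM in PKM2 WT. The call is not firm: without PKM2 KO replicate 1, PKM2 KO replicate 2 or PKM2 WT replicate 2 the limma adjusted p was 0.108, 0.0728 and 0.0596, with log2 fold changes that stayed between -1.42 and -1.35 over all single omissions. With Ddx3y expression as a covariate for sex it was 0.0618, at a log2 fold change of -1.39.

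**Figure D1:**
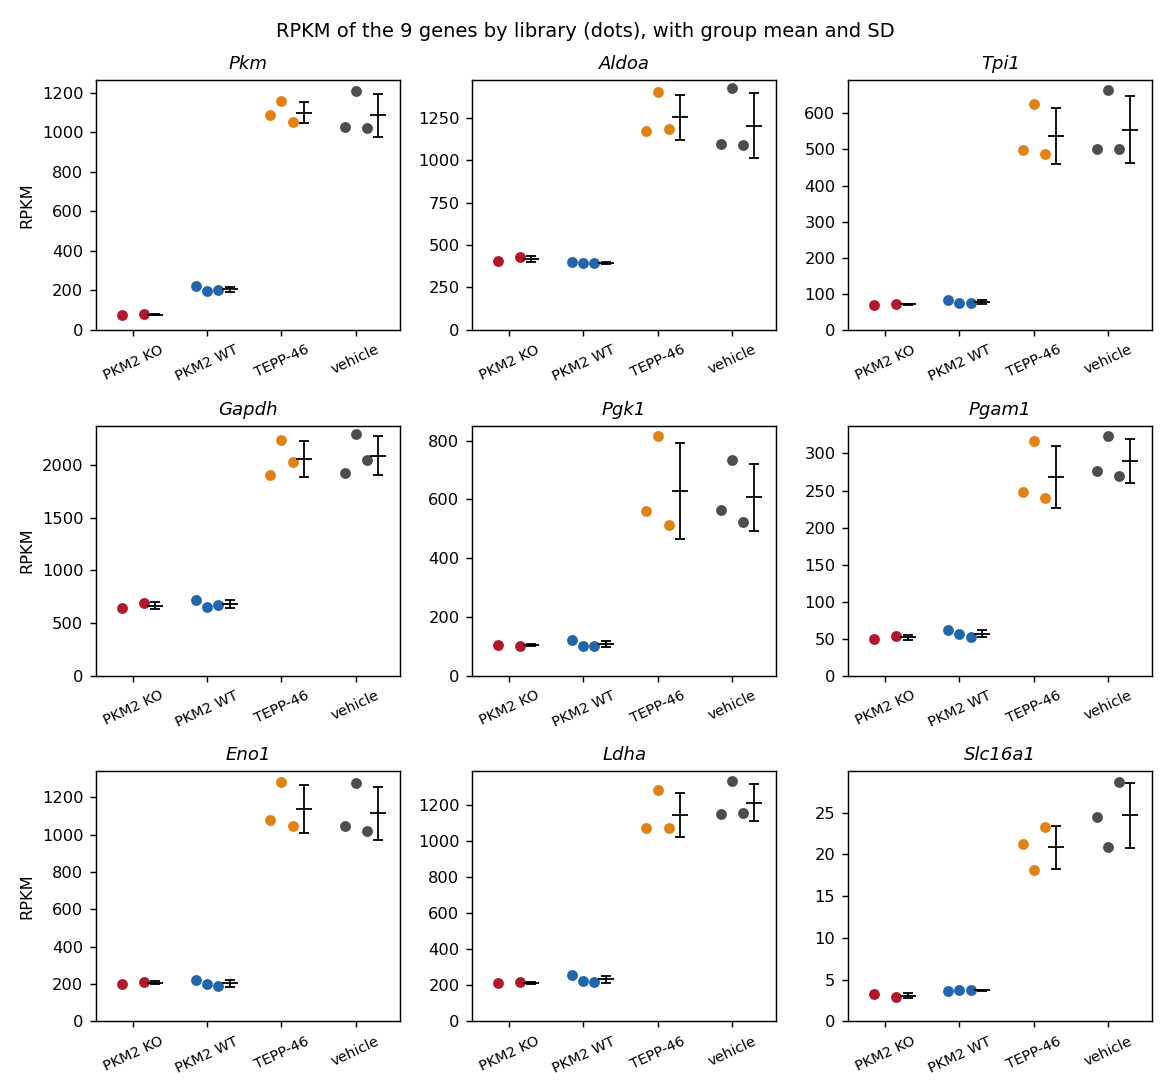
RPKM of each of the 9 genes in PKM2 KO (n = 2), PKM2 WT (n = 3), TEPP-46 (n = 3) and vehicle (n = 3); dots are libraries, and the bar beside them is the group mean with its SD. Pkm lies at 76.7 and 78.4 RPKM in PKM2 KO and at 198 to 221 RPKM in PKM2 WT, while the other 8 genes lie close together in those groups, and all 9 lie higher in both drug groups.

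Over all genes tested, 11 passed (0.0987%), 9 of them lower in PKM2 KO (0.0808%). The 1 of 9 is Pkm, the targeted gene, so it is not a result about the 9 genes as a set. Its fall checks the genotype labels but not the cytokine labels. The 8 others had log2 fold changes between -0.22 and 0.08 and adjusted p-values from 0.627 to 0.966 by limma. The median over the 9 genes was -0.11, beside 0.00 over all genes tested.

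Upstream of Pkm, aldolase stood slightly higher. Aldoa was at 407 and 430.4 RPKM in PKM2 KO, against 399.5, 391 and 395 RPKM in PKM2 WT. These groups did not overlap, yet the difference was small (log2 fold change 0.08, 95% interval -0.05 to 0.21, limma adjusted p = 0.749). Tpi1 was at 69.3 and 71.7 RPKM in PKM2 KO, against 82.5, 74.7 and 73.2 RPKM in PKM2 WT, also without overlap (log2 fold change -0.12, limma adjusted p = 0.736). Counting Pkm and Slc16a1, 1 of 9 genes lay wholly above PKM2 WT and 3 of 9 wholly below, where 24.6% of all genes tested had groups that did not overlap (10.2% higher, 14.5% lower).

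Gapdh, the dehydrogenase that makes NADH, was at 638.5 and 686 RPKM in PKM2 KO and at 717, 647 and 671 RPKM in PKM2 WT. Pgk1 makes the first ATP of the pathway and was at 105 and 101 RPKM in PKM2 KO, against 119.97, 102 and 99.8 RPKM in PKM2 WT. Pgam1, a mutase, had 49.25 and 54.0 RPKM in PKM2 KO against 61.4, 55.95 and 52.8 RPKM in PKM2 WT. In all 3 genes the groups overlapped, and PKM2 WT replicate 1 was the highest library. Eno1, the enolase whose product is the substrate of pyruvate kinase, was at 202.2 and 213 RPKM in PKM2 KO and at 225, 199.8 and 189.6 RPKM in PKM2 WT (log2 fold change 0.02, 95% interval -0.20 to 0.24).

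Downstream of pyruvate, Ldha was at 211 and 219 RPKM in PKM2 KO, against 258, 225 and 217 RPKM in PKM2 WT, and the groups overlapped (log2 fold change -0.11, 95% interval -0.34 to 0.11). Slc16a1 was at 3.29 and 2.87 RPKM in PKM2 KO, against 3.68, 3.81 and 3.75 RPKM in PKM2 WT. The transporter therefore lay lower without overlap, but it did not pass (log2 fold change -0.22, 95% interval -0.44 to 0.00, limma adjusted p = 0.627). For the 8 genes other than Pkm the 95% intervals together ran from 0.736-fold to 1.18-fold.

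Set against its own pathway, Pkm left its place. The RPKM of Pkm divided by the geometric mean of the other 8 genes was 0.741 and 0.743 in PKM2 KO, against 1.87, 1.84 and 1.88 in PKM2 WT. On the log2 scale this is -0.43 ± 0.0031 in the 2 libraries of PKM2 KO and 0.90 ± 0.018 in the 3 of PKM2 WT (± SD), a difference of -1.33 (exact permutation test, p = 0.1, the smallest possible). This ratio does not depend on how a library is scaled, and it differed by far more than the spread within a group. Pkm made up 4.23% to 4.35% of the summed RPKM of the 9 genes in PKM2 KO and 10.4% to 10.6% in PKM2 WT. The other 8 together held 0.241% to 0.264% of the RPKM of all genes but the 3 small RNAs in PKM2 KO, and 0.242% to 0.256% in PKM2 WT, with ranges that overlapped.

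**Figure D2:**
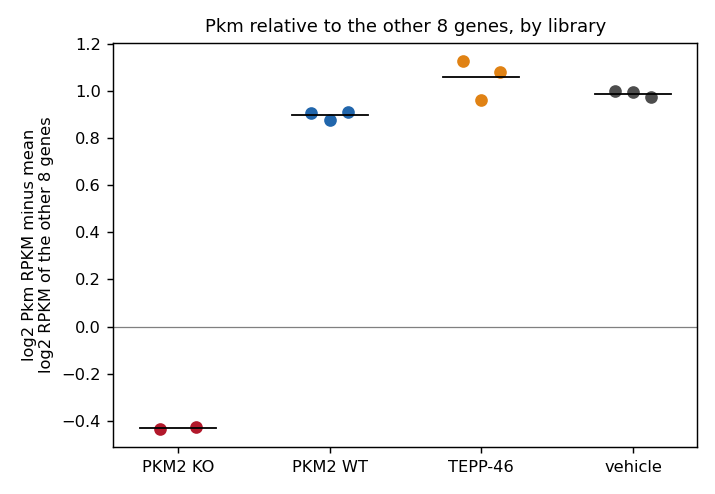
Log2 RPKM of Pkm minus the mean log2 RPKM of the other 8 genes, one dot per library, with the group mean as a line, for PKM2 KO (n = 2), PKM2 WT (n = 3), TEPP-46 (n = 3) and vehicle (n = 3). The PKM2 KO libraries average -0.43 and PKM2 WT 0.90, and TEPP-46 and vehicle average 1.06 and 0.99.

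The order of levels shows the same displacement. In PKM2 KO it ran Gapdh (662 RPKM), Aldoa (419), Ldha (215), Eno1 (208), Pgk1 (103), Pkm (77.5), Tpi1 (70.5), Pgam1 (51.6) and Slc16a1 (3.08). Only Ldha and Eno1 were neighbours whose libraries overlapped, and Pkm was 6th. In PKM2 WT the means were 679 RPKM for Gapdh, 395 for Aldoa, 233 for Ldha, 206 for Pkm, 205 for Eno1, 107 for Pgk1, 76.8 for Tpi1, 56.7 for Pgam1 and 3.75 for Slc16a1. There Ldha, Pkm and Eno1 overlapped from neighbour to neighbour, and Pkm was 4th.

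The genes around this route did not pass either. In PKM2 KO against PKM2 WT limma called 0 of 4 other isoforms of the same steps, 0 of 3 other lactate transport genes, 0 of 15 genes of glucose uptake and upper glycolysis, 0 of 12 of mitochondrial pyruvate entry and 0 of 13 HIF1 and MYC regulators, with 4 of these genes at an unadjusted p under 0.05 (7.94% of all genes were). Those 4 were Bsg, Dlat, Hif1a and Myc. Dlat, the acetyltransferase subunit of pyruvate dehydrogenase, was at 10.8 and 10.4 RPKM in PKM2 KO, against 17.4, 15.9 and 16.2 RPKM in PKM2 WT (log2 fold change -0.60, adjusted p = 0.218 by limma). Its groups stood well apart, and it passed (adjusted p = 0.0137) where limma took the spread from all 11 libraries. Hif1a, the oxygen-regulated factor that drives glycolytic genes, averaged 75.9 ± 1.60 RPKM over 2 PKM2 KO libraries and 63.8 ± 3.50 RPKM over 3 of PKM2 WT (± SD; limma adjusted p = 0.493). Myc averaged 19.1 RPKM in PKM2 KO and 22.2 RPKM in PKM2 WT (limma adjusted p = 0.587), and Bsg, the chaperone of MCT1, 99.9 RPKM in PKM2 KO and 109 RPKM in PKM2 WT (limma adjusted p = 0.627).

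The authors' deposited table of genes changed by the knockout holds 11 genes, and Pkm is the only one of the 9 in it. In that authors' deposited table the authors give Pkm ratios of 0.539 for KO against WT with the label "2/12 18h" (p = 8.83e-12) and 0.396 for KO against WT with the label "US 18h" (p = 0.0142). Between those conditions the authors' deposited table gives a Pkm ratio of 7.86 in KO (p = 5.56e-12) and 5.78 in WT (p = 9.72e-18). The ratio of 0.377 computed here from the RPKM of the genotype libraries is nearer to the 0.396 of the authors' deposited table than to its 0.539. The sources used here do not say how the authors made these values.

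None of the 9 genes passed the test in TEPP-46 against vehicle. Pkm was at 1089, 1155 and 1053 RPKM in TEPP-46, against 1027, 1208 and 1019 RPKM in vehicle. The groups overlapped almost fully, with a log2 fold change of 0.02 (SE 0.09, 95% interval -0.19 to 0.24, limma adjusted p = 0.952), that is, between 0.876-fold and 1.18-fold. Limma called 0 of 9 genes where it called 0% of all genes, and 0 of 9 were at an unadjusted p under 0.05, where 9.43% of all genes (1051) were. In each of the 9 the groups overlapped, against 15.3% of all genes whose groups did not. The median log2 fold change was -0.02, as it was over all genes tested.

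The enzymes from aldolase to enolase varied more between libraries than between treatments. Aldoa was at 1170.2, 1404 and 1180.2 RPKM in TEPP-46 and at 1094, 1422 and 1087 RPKM in vehicle. Tpi1 was at 498, 627 and 488 RPKM in TEPP-46 and at 501, 663 and 501 RPKM in vehicle. Gapdh was at 1900.3, 2239 and 2029.8 RPKM in TEPP-46 and at 1923, 2290.2 and 2047 RPKM in vehicle. In each of these the second replicate was the highest of its group. Pgk1 showed the widest spread, at 562, 815 and 511 RPKM in TEPP-46 and 563, 734 and 522 RPKM in vehicle, and with it the widest interval, from -0.49 to 0.57 on the log2 scale. Pgam1 was at 248, 316 and 239.8 RPKM in TEPP-46 and at 277, 324 and 269 RPKM in vehicle. Eno1 was at 1079.8, 1284 and 1048 RPKM in TEPP-46 and at 1046, 1279 and 1022 RPKM in vehicle, which again lay on top of each other.

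Ldha and Slc16a1 stood slightly lower in TEPP-46, within the spread of libraries when replicate numbers were left out, as did Pgam1 (log2 fold change -0.12, limma adjusted p = 0.799). With the replicate number as a block, these 3 had an unadjusted limma p under 0.05, as did 23.3% of all genes, and none passed. Of the 3 other lactate transport genes, 2 had a log2 fold change above 0 and 1 below. Ldha was at 1076, 1285 and 1076 RPKM in TEPP-46 and at 1154, 1333 and 1157 RPKM in vehicle (log2 fold change -0.09, 95% interval -0.34 to 0.17, limma adjusted p = 0.819). Slc16a1 was at 21.2, 18.1 and 23.2 RPKM in TEPP-46 and at 24.5, 20.9 and 28.7 RPKM in vehicle. Its log2 fold change of -0.23 (95% interval -0.58 to 0.12, limma adjusted p = 0.656) was the furthest from 0 of the 9. Replicate 2 was the highest library for 8 of 9 genes in both TEPP-46 and vehicle, and the lowest for Slc16a1. Pkm relative to the other 8 genes was 1.06 ± 0.084 on the log2 scale in TEPP-46 and 0.99 ± 0.014 in vehicle (SD, n = 3 each; exact permutation test, p = 0.4).

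**Figure D3:**
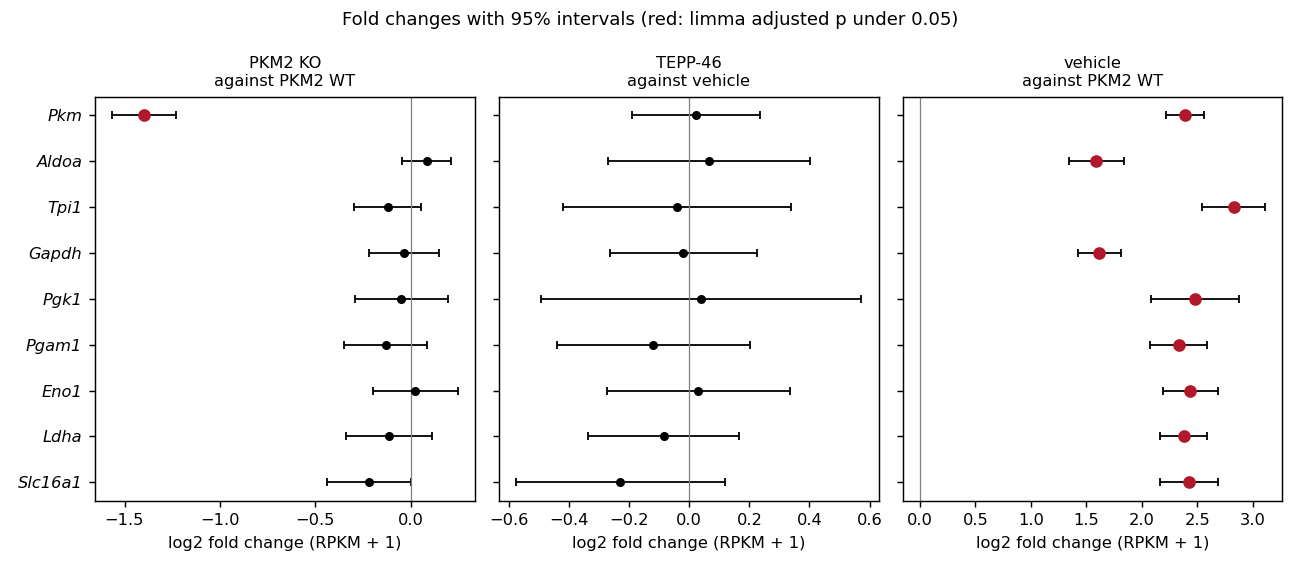
Log2 fold changes of RPKM + 1 with 95% intervals from limma for the 9 genes in PKM2 KO against PKM2 WT, TEPP-46 against vehicle and vehicle against PKM2 WT, each panel with its own x axis; red dots have an adjusted p under 0.05. Pkm alone is red in the first panel, at -1.40, none is red in the second, and all 9 are red in the third, from 1.59 to 2.83.

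Around the 9 genes TEPP-46 gave 0 limma calls in any pathway list (0 of 4, 0 of 3, 0 of 15, 0 of 12 and 0 of 13), with 7 genes of these lists at an unadjusted p under 0.05, as were 9.43% of all genes. Eno3, the muscle enolase, averaged 5.25 RPKM in TEPP-46 and 7.19 RPKM in vehicle (limma adjusted p = 0.425). Pfkm, the muscle phosphofructokinase, averaged 2.81 ± 0.37 RPKM in TEPP-46 and 3.69 ± 0.055 RPKM in vehicle (SD, n = 3 each; limma adjusted p = 0.408). Bpgm, which makes 2,3-bisphosphoglycerate, averaged 5.02 RPKM in TEPP-46 and 6.04 RPKM in vehicle (limma adjusted p = 0.430). Dlat averaged 28.5 RPKM in TEPP-46 and 33.1 RPKM in vehicle (limma adjusted p = 0.462). These low or modest differences did not pass. The authors' deposited table for TEPP-46 lists 24 genes, and 0 of the 9 are in it.

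The same 9 genes differed strongly between the vehicle libraries and the libraries labelled PKM2 WT. All 9 were higher in vehicle by limma over 4 group means, with folds of the mean from 3.04 to 7.23, where 75.3% of all genes tested were called and 38.6% were called higher. At a log2 fold change of at least 1 it is 9 of 9 genes against 13.1%. Their median log2 fold change was 2.39, beside 0.00 over all genes, and each lay between the 94.7th and the 99.5th percentile of all genes tested. Vehicle and PKM2 WT differ in experiment, in Cre, in added vehicle, in Ddx3y and in Ifng (1014 to 1083 RPKM in vehicle, 22.7 to 24.2 RPKM in PKM2 WT), and these cannot be told apart; whether the PKM2 WT libraries were stimulated was not tested. The ratio of Pkm computed here was 5.27, and the authors' deposited table gives 5.78 for WT with the label "2/12 18h" over "US 18h". Pkm was at 1019 to 1208 RPKM in vehicle, where all libraries expressed Ddx3y, and 199 RPKM in the PKM2 WT library that expressed Ddx3y.

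**Figure D4:**
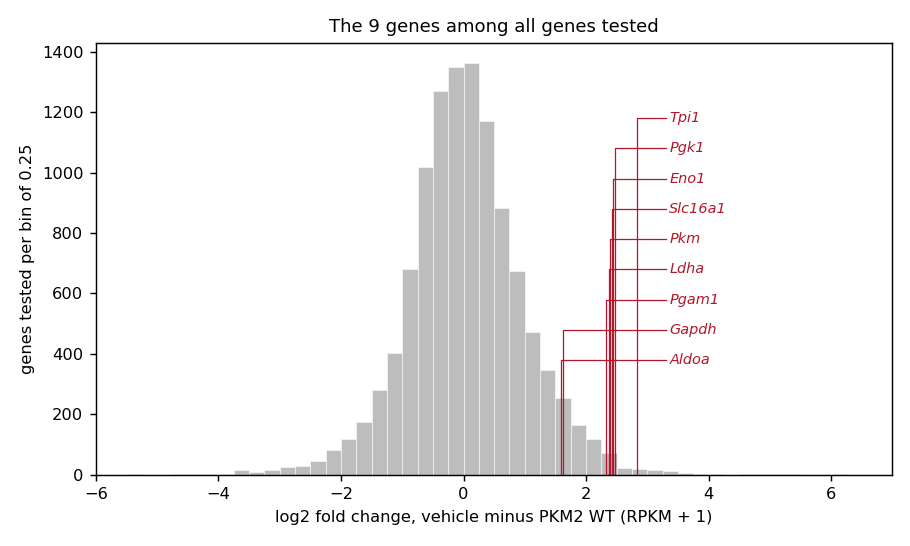
Number of tested genes by log2 fold change of RPKM + 1, vehicle minus PKM2 WT, in bins of 0.25 (grey), with the 9 genes marked in red; 8 genes lie outside the plotted range. Aldoa and Gapdh lie at 1.59 and 1.62, the other 7 genes between 2.33 and 2.83, and the middle of all genes is at 0.00.

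The 9 genes did not move by one factor. Aldoa averaged 1201 ± 191 RPKM in vehicle and 395 ± 4.25 RPKM in PKM2 WT (SD, n = 3 each), which is 3.04-fold. Gapdh averaged 2087 ± 187 RPKM in vehicle and 679 ± 35.7 RPKM in PKM2 WT, which is 3.08-fold. These are the highest of the 9 in PKM2 WT, and they had the smallest folds: their 95% intervals, 2.54 to 3.57 and 2.68 to 3.51, end below those of the other 7 genes, which begin at 4.22 or more. Tpi1 had the highest fold, at 555 ± 93.8 RPKM in vehicle and 76.8 ± 4.97 RPKM in PKM2 WT (7.23-fold, 95% interval 5.83 to 8.63, limma adjusted p = 4.99e-08). In vehicle Aldoa was thus no longer apart from Ldha, Eno1 and Pkm, whose libraries overlapped from neighbour to neighbour, while in PKM2 WT it stood apart from all of them.

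Between these ends, 5 other enzymes were higher by similar factors. Pkm was 5.27-fold higher (limma adjusted p = 9.32e-09), Pgk1 5.66-fold, Pgam1 5.12-fold, Eno1 5.45-fold and Ldha 5.205-fold in vehicle over PKM2 WT. Their 95% intervals overlapped. Slc16a1 averaged 24.7 ± 3.89 RPKM in vehicle and 3.75 ± 0.065 RPKM in PKM2 WT (SD, n = 3 each), 6.59-fold by the means. At so low a level the fitted value leans on the pseudocount, with a log2 fold change of 2.43 at 1 RPKM, 2.68 at 0.1 and 1.76 at 5. Pkm relative to the other 8 was 0.99 in vehicle and 0.90 in PKM2 WT, a log2 difference of 0.09 (exact permutation test, p = 0.1, the smallest possible) that turned to -0.07 when the median of the 8 replaced their mean.

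The genes around the route were less uniform in vehicle against PKM2 WT. Of 15 genes of glucose uptake and upper glycolysis 7 were higher and 6 lower by limma, with a median log2 fold change of 0.14, near the shares over all genes tested (38.6% higher, 36.7% lower). Hk2, the hexokinase that traps glucose in the cell, averaged 105.8 ± 0.78 RPKM in vehicle and 2.60 ± 0.31 RPKM in PKM2 WT (log2 fold change 4.89, limma adjusted p = 2.16e-10). Slc2a1, the glucose transporter GLUT1, averaged 43.2 RPKM in vehicle and 9.23 RPKM in PKM2 WT, a log2 fold change of 2.11. The phosphofructokinase gene Pfkl averaged 53.0 RPKM in vehicle and 9.63 RPKM in PKM2 WT, and Pfkp 125 RPKM in vehicle and 50.5 RPKM in PKM2 WT. These 4 genes were higher, whereas the list as a whole did not go one way.

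Of the 3 other lactate transport genes 2 were higher and 1 lower, beside the same 38.6% and 36.7% of all genes. Slc16a3, which encodes the lactate exporter MCT4, was at 71.2, 110.3 and 59.7 RPKM in vehicle, against 6.89, 5.53 and 4.98 RPKM in PKM2 WT (log2 fold change 3.54), so that its level lay above that of Slc16a1 in every library of both groups. It did not pass in the other comparisons, at 5.73 ± 0.24 RPKM in PKM2 KO against 5.80 ± 0.98 RPKM in PKM2 WT, and at 74.9 ± 25.7 RPKM in TEPP-46 against 80.4 ± 26.5 RPKM in vehicle (± SD; limma adjusted p = 0.997 and 0.936). Bsg averaged 194 RPKM in vehicle and 109 RPKM in PKM2 WT, and was higher. Emb, which encodes embigin, another partner of monocarboxylate transporters, was lower, at 129 RPKM in vehicle and 171 RPKM in PKM2 WT.

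Of the 4 other isoforms in the table, Eno1b and Eno3 were higher in vehicle, Aldoc was lower and Bpgm did not pass (all genes: 38.6% higher, 36.7% lower). Eno1b matches Eno1 at 99.5% over 1736 bases, so its values may hold reads of Eno1. How reads were shared between them was not tested, and the Eno1b call is not separate from that of Eno1. In mitochondrial pyruvate entry 10 of 12 genes were higher and 1 was lower, with a median log2 fold change of 0.62, against 38.6% higher and 36.7% lower over all genes. Dlat averaged 33.1 RPKM in vehicle and 16.5 RPKM in PKM2 WT, and the phosphatase gene Pdp1, whose product activates pyruvate dehydrogenase, 20.4 RPKM in vehicle and 9.12 RPKM in PKM2 WT. The lower gene was Pdk2, an inhibitory kinase of that complex, at 0.387 ± 0.064 RPKM in vehicle and 3.95 ± 0.69 RPKM in PKM2 WT (SD, n = 3 each). Among 13 HIF1 and MYC regulators 6 were higher and 4 lower, near the shares over all genes (38.6% and 36.7%). Hif1a averaged 187 RPKM in vehicle and 63.8 RPKM in PKM2 WT, and Myc 75.2 RPKM in vehicle and 22.2 RPKM in PKM2 WT. The MYC network repressors split: Mxd1 averaged 173 RPKM in vehicle and 15.9 RPKM in PKM2 WT, but Mxd4 15.8 RPKM in vehicle and 77.9 RPKM in PKM2 WT. Markers of other cells moved between these groups too: limma called 7 of 7 granulocyte, basophil and mast cell markers and 4 of 5 T cell markers lower in vehicle (36.7% over all genes), the T cell list with a median log2 fold change of -1.47 and with Cd3g at 7.90 RPKM in vehicle and 85.0 RPKM in PKM2 WT. The 1 red cell and platelet marker was also lower. Of the 2 macrophage and dendritic cell markers, 1 was called higher: Xcr1, at 11.7 RPKM in vehicle and 1.67 RPKM in PKM2 WT. The part of all these markers in the results was not tested.

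**Figure D5:**
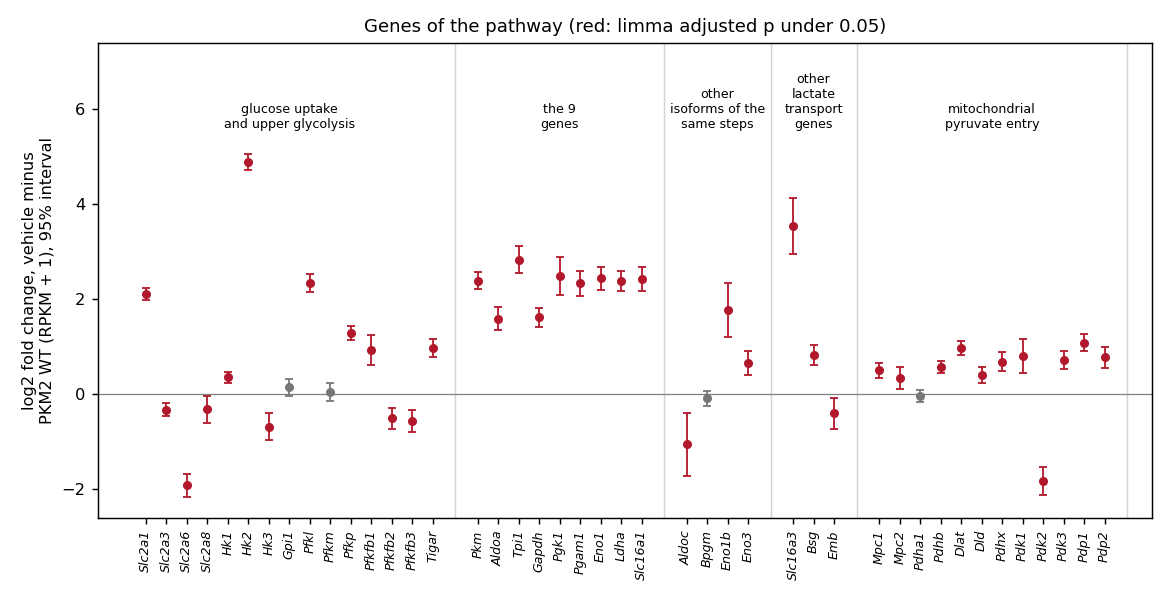
Log2 fold change of RPKM + 1, vehicle minus PKM2 WT, with its 95% interval from limma, for the tested genes of 5 lists; red marks an adjusted p under 0.05 and grey the rest. All 9 genes lie between 1.59 and 2.83, while glucose uptake and upper glycolysis runs from Slc2a6 at -1.92 to Hk2 at 4.89.

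Promoters of 3 of the 9 genes are printed because HIF1 and MYC, whose genes are among those just described, bind short motifs that can be read there. HIF1 binds sites with the core ACGTG, or with its common variant GCGTG, and MYC binds the E-box CACGTG, which holds ACGTG on both strands, so the motifs overlap. Each window is the 250 bases before a RefSeq start site in GRCm38.p6, on the gene's strand, here the plus strand, and capitals mark ACGTG on either strand.
Ldha chr7:46845554-46845803: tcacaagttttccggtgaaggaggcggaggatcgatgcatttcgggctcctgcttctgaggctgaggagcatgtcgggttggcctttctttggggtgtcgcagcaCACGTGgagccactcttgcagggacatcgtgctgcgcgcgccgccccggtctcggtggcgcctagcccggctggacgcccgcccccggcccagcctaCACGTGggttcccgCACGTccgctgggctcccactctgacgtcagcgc
Pgk1 chrX:106186850-106187099: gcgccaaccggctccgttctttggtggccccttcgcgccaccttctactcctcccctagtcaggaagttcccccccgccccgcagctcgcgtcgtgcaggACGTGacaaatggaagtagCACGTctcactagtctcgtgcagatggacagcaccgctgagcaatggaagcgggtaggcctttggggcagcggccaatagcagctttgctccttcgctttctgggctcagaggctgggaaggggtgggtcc
Slc16a1 chr3:104638414-104638663: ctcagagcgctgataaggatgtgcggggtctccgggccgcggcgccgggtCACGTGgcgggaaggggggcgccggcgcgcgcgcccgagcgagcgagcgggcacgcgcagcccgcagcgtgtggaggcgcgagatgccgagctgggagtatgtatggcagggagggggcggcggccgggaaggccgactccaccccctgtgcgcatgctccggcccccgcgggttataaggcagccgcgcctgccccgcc
The printed Ldha window, 1 of 2 for this gene and the one with matches, holds 3 separate sites, 2 of them CACGTG; the other, chr7:46846832-46847081, holds 0. The Pgk1 window holds 2 sites and the Slc16a1 window 1 site, a CACGTG. These windows hold no annotated exon.

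All 9 genes matched RefSeq, with 15 windows. ACGTG was present in any window of 6 of 9 genes (66.7%), namely Aldoa, Pkm, Pgam1, Pgk1, Ldha and Slc16a1, and of 18.5% of 27025 genes with a window. For Pkm the match lies in the window chr9:59656977-59657226, while the window chr9:59656326-59656575 holds 0. Both overlap annotated exons of Pkm. By window the shares were 7 of 15 (46.7%) and 16.6% of 32851. The Aldoa windows with a match, chr7:126799255-126799504 and chr7:126799179-126799428, overlap and hold the same site, which is thus counted more than once. GCGTG was present in 5 of 9 genes (55.6%) and 30.9% of all, and CACGTG in 2 of 9 (22.2%) and 6.86% of all. In Gapdh, Eno1 and Tpi1 no window held ACGTG. A match describes letters in a window, and binding was not measured.

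The genes whose profile over the 11 libraries, PKM2 KO included, was nearest to that of Pkm were not glycolytic. Likeness was the root mean square difference between centred log2(RPKM + 1) profiles, and the nearest were 2810417H13Rik (0.28), Cdk1 (0.30), Prdx4 (0.32), Shcbp1 (0.32) and Hist2h3c2 (0.32) out of 11141. Cdk1, the kinase that drives mitosis, was at 25.2 and 23.7 RPKM in PKM2 KO, against 49.1, 40.8 and 37.4 RPKM in PKM2 WT, and at 184 to 219 RPKM in TEPP-46, against 202.2 to 235 RPKM in vehicle. As the choice of Cdk1 used these libraries, its values describe the choice and are not a result; limma did not call it in PKM2 KO against PKM2 WT except with the spread from all libraries (log2 fold change -0.77, adjusted p = 0.0497). Hist2h3c2 belongs to a family of near-identical histone genes, so its level is uncertain. Of the 8 others, Tpi1 ranked 40th by likeness, Pgk1 111th, Ldha 113th, Slc16a1 121st, Pgam1 132nd, Eno1 143rd, Gapdh 543rd and Aldoa 612th. Pkm is the targeted gene and averaged 77.5 RPKM in PKM2 KO, against 206 RPKM in PKM2 WT. The ranking therefore favours genes that were also low in PKM2 KO and places lower those that were not. It cannot decide which genes go with Pkm apart from the deletion, and likeness without the PKM2 KO libraries was not tested.

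Levels of several of the 9 may depend in part on how reads were shared with similar copies, which the sources used here do not say. Sequences in the GENCODE transcripts that match a gene at 90% or more over at least 300 bases number 113 for Gapdh, 13 for Ldha, 8 for Pkm, 6 each for Aldoa and Eno1, 4 for Pgk1, 3 for Pgam1, 2 for Tpi1 and 0 for Slc16a1. The Gapdh matches are 300 to 318 bases long, so their number depends on that limit. Copies with values in the table reached at most 36.8 RPKM for Gapdh, 21.9 for Pgk1, 16.9 for Eno1 and 5.21 for Pgam1. Aldoa, Tpi1 and Gapdh overlap a gene on the opposite strand (Fam57b, Spsb2 and Iffo1), and the sources used here do not say whether counting used the strand.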

How the data were processed

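RNA of mouse NK cell cultures was sequenced in 12 labelled samples. Reads were aligned with STAR to mm10, per the submitters' processing notes; the sources used here give no versions, no counting method and no annotation. One source names poly(A) selection and another total RNA. The authors deposited RPKM, rounded to 2 decimals. The authors also deposited lists of changed genes with a mean ratio (fold) and a p-value, quoted as theirs only. Of its columns, 11 carry the name of a sample; PKM2 KO replicate 3 matched none and was not analysed here, and 5 columns that matched no sample were not used.

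Tests used log2(RPKM + 1), limma 3.58.1 (R 4.3.3) with a variance trend, and Benjamini-Hochberg adjustment over 11142 genes whose mean RPKM was 1 or more; an adjusted p under 0.05 is a call. Folds on this scale understate changes of low genes. The genotype and drug tests used their own libraries, and vehicle against PKM2 WT used 4 group means over 11 libraries. Exact two-sided permutation tests were run over libraries, with 0.1 the smallest p. Depth is unknown: at most 6 of 210 to 248 short genes shared one step ratio between libraries. The limma scripts were tested on simulated data. Alternatives were other pseudocounts, filters, scalings, gene sets, spread estimates, sex and replicate terms, and omission of each library. Identifiers were matched to GENCODE M21 (11675 of 11706). Promoter sequences are from RefSeq (GRCm38.p6). Figures used matplotlib 3.10.9.

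The 9 genes and all gene lists were chosen with earlier results of these data known. Beside the 9, the text names up to 4 genes of smallest p per pathway list and comparison, the 5 nearest to Pkm in profile, and genes that check labels or cell types (Ifng, Ddx3y, Gzmb, Klrb1c, Ncr1, Cd3g, Cd3d, Trac, Trbc1, Trbc2, Xcr1), which with other genes of the lists were chosen after their values were seen.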

Additional observations from a re-analysis of the deposited data

How the results depend on the processing

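For PKM2 KO against PKM2 WT the count of all genes called, 11 as reported, was 7 with a pseudocount of 5, 25 with the spread from all libraries, 6 with sex as a covariate and 5 to 21 without single libraries; the count among the 9 genes was 0 with sex as a covariate and 0 to 1 without single libraries. Pkm had a log2 fold change of -1.39 (limma adjusted p = 0.0618) with sex as a covariate and -1.42 to -1.35 without single libraries. Where single libraries were left out, Gapdh ran from -0.086 to 0.017, Pgk1 from -0.099 to 0.033 and Eno1 from -0.029 to 0.092.

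For TEPP-46 against vehicle the count of all genes called, 0 as reported, was 1 with a pseudocount of 0.1 (Gm44330), 1 after rescaling without the 3 small RNAs (Mt1), 3 among protein-coding genes only (Gzmf, Mt2 and Mt1) and 0 to 3 without single libraries; 0 of the 9 genes passed in any of these. Gapdh was at 0.0095 after the rescaling. Without single libraries Pkm ran from -0.021 to 0.10, Aldoa from -0.020 to 0.19, Tpi1 from -0.16 to 0.093, Gapdh from -0.084 to 0.048, Pgk1 from -0.16 to 0.19 and Eno1 from -0.061 to 0.13. Pkm relative to the median of the other 8 differed by -0.012 in TEPP-46 against vehicle (exact permutation test, p = 1) and by -0.072 in vehicle against PKM2 WT (exact permutation test, p = 0.3).

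With the replicate number as a block, limma called 0 genes in PKM2 KO against PKM2 WT (953 at an unadjusted p under 0.05), 0 of the 9, with Pkm at -1.42 (adjusted p = 0.267) and Eno1 at -0.029. In TEPP-46 against vehicle the block gave 3 calls (Gzme, Mt1 and Gzmd) and 0 of the 9. Pgam1, Ldha and Slc16a1 then had an unadjusted p under 0.05, all lower in TEPP-46 (log2 fold changes -0.12, -0.09 and -0.23). Of all genes, 23.3% had such a p in either direction, and 14.7% had it and were lower. The numbers are not shown to pair the samples. Deviations of same-numbered samples correlated at 0.07 and -0.10 in the genotype groups. There the deviations of the 2 PKM2 KO libraries mirror each other, so these values cannot decide on pairing. In the drug groups they correlated at 0.05, 0.28 and 0.27, and every sample correlated best with its own number. All 9 genes passed in vehicle against PKM2 WT under every alternative run. The cause of these changes was not tested.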
